A study of Mus musculus with 12 samples.

Results

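The collagens and the enzymes that process, cross-link and degrade them were examined in glomeruli, the filtering tufts of the kidney, from diabetic and nondiabetic mice treated with arctigenin (ATG) or vehicle. Members were taken by a rule on gene symbols, chosen with earlier results of these data known. The rule covers collagen chains without the α3, α4 and α5 chains of collagen IV, matrix metalloproteinases (Mmp) and their tissue inhibitors (Timp). It also covers the Adamts and Adamts-like genes and the lysyl oxidases. This gave 77 of the 14096 listed genes, made up of 39 collagen chains, 9 Mmp genes, 16 Adamts proteases, 5 Adamts-like genes, 3 Timp genes and 5 lysyl oxidases. Mmp9 and Timp1 are not analysed here. The libraries were made from poly-A RNA of 12 male eNOS−/− mice on the C57BL/6J strain, 3 in each of 4 groups. All 12 mice, controls included, lack endothelial nitric oxide synthase. Diabetic mice had received streptozotocin (STZ), which destroys insulin-producing cells, at 50 mg/kg on 5 days at 8 weeks of age, and nondiabetic mice had received citrate buffer. From 10 weeks after induction, each mouse was gavaged daily for 8 weeks with ATG, a plant lignan, at 40 mg/kg in 5% DMSO, or with the DMSO vehicle alone. The groups are called vehicle-treated nondiabetic, ATG-treated nondiabetic, vehicle-treated diabetic and ATG-treated diabetic. Nothing in the labels ties a mouse of one group to a mouse of another, and no wild-type mouse was included.

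A collagen is a trimer of α chains that is modified and folded in the endoplasmic reticulum, secreted, trimmed at its ends and cross-linked outside the cell. Fibrillar collagens form the fibers of scar and interstitium, whereas collagen IV and related network-forming chains make up basement membranes and the mesangial matrix that holds glomerular capillaries together. Metalloproteinases and Adamts proteases cut these proteins and the proteoglycans between them, Timps block the proteases, and expansion of the mesangial matrix with thickening of the basement membrane is a hallmark of diabetic kidney disease.

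Values are the deposited log2 values, on which a difference of 1 is a doubling. Libraries held 23639864 to 29770635 reads on the listed genes, and members were covered by 35 reads (Timp4 in its lowest library) to 133530 reads (Timp3 in its highest). The targeted gene, Nos3, was still listed, with 846 to 2703 reads per library. Its reads do not check the labels, since every group carries the same deletion. Podocyte markers averaged between 13.42 and 15.09 in every library, so the defining cells of the glomerulus were present in each. Tubule markers were also abundant: the mean of 42 tubule markers was 12.37 to 12.80 in vehicle-treated nondiabetic mice, 12.97 to 13.55 in ATG-treated nondiabetic mice, 10.48 to 11.81 in vehicle-treated diabetic mice and 11.22 to 11.74 in ATG-treated diabetic mice. The mean of 34 podocyte, endothelial and mesangial markers was 13.36 to 13.44 in vehicle-treated nondiabetic mice, 12.30 to 13.11 in ATG-treated nondiabetic mice, 13.37 to 13.75 in vehicle-treated diabetic mice and 13.51 to 13.63 in ATG-treated diabetic mice. ATG-treated nondiabetic libraries therefore stood apart from the other 3 groups in both sums, with the lowest glomerular and the highest tubule levels. In such bulk libraries, fewer cells of a type and less RNA per cell cannot be told apart.

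The α1 and α2 chains of collagen IV passed the test in both diabetes comparisons described below, and their genes lie head to head. Col4a1 is encoded on the minus strand of chromosome 8 (GRCm38.p6, chr8:11198423-11312889) and Col4a2 on the plus strand (chr8:11312805-11449287). These outer ends overlap. The promoter windows of RefSeq start Col4a1 at an inner position, chr8:11312826, and Col4a2 at chr8:11312805, and the 22 bases from the one start to the other are printed here on the plus strand because both genes that changed are annotated there, with capitals marking the GC box (GGGCGG).
Col4a1 and Col4a2: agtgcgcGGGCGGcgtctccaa

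Mmp14 and Col8a1 also passed the test in both diabetes comparisons and in nondiabetic mice given ATG, and RefSeq windows were available for both. Windows were found for 54 of the 77 members. The 250 bases before each annotated start are shown on the strand of the gene, 5′ to 3′, with capitals marking matches on either strand to the TATA box (TATAAA), the CCAAT box, the GC box (GGGCGG) or the AP-1 element (TGANTCA). The Mmp14 window is chr14:54431348-54431597 (plus strand) and the Col8a1 window chr16:57754738-57754987 (minus strand).
Mmp14: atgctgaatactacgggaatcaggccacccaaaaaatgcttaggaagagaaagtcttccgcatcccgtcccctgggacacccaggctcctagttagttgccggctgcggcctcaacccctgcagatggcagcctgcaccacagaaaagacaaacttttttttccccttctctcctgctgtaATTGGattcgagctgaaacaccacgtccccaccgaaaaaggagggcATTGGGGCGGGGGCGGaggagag
Col8a1: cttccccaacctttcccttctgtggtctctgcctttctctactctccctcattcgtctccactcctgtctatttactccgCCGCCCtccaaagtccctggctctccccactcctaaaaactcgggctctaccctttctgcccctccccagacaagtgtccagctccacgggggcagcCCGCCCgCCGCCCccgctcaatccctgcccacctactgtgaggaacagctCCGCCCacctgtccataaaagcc

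The Mmp14 window held CCAAT at 2 places, both as its reverse complement, and GGGCGG at 2 places, the first of which overlaps the second CCAAT. The Col8a1 window held GGGCGG at 4 places, all as its reverse complement. GGGCGG was present in 32.7% of all 32851 windows of this length, CCAAT in 33.8%, TATAAA in 12.4% and TGANTCA in 6.75%. In the 59 windows of members these shares were 62.7%, 25.4%, 11.9% and 5.08%, in the same order, and the difference was not tested. These are matches of letters and do not show that a factor binds.

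Per 1000 bases of transcript, the scale on which different genes can be compared, members ranged from 3.86 (Loxl4) to 14.42 (Timp3), with a median of 6.45 against 8.25 for all listed genes. Timp3, the inhibitor that is bound to the matrix, was followed by Col18a1 at 11.85, the heparan sulfate-bearing basement membrane collagen whose end is released as endostatin. Timp2 stood at 11.79 and Col4a1 at 11.51, above Mmp23 at 11.44 and Col4a2 at 11.00. Loxl2, a lysyl oxidase that cross-links collagen IV, stood at 10.70, and Adamts1, a protease of versican and aggrecan, at 10.10. The SD over the 12 mice was 0.32 for Timp3, 0.29 for Col18a1, 0.40 for Timp2, 0.54 for Col4a1 and 0.64 for Col4a2, so that neighbors in the order from Col18a1 to Col4a2 differed by less than the spread between mice.

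Among the fibrillar chains, Col1a2 stood at 10.56 per 1000 bases and Col1a1, its partner in collagen I, at 6.34. In each of the 12 libraries Col1a2 exceeded Col1a1 on this scale, by 8.86- to 30.9-fold. Col5a2 (8.06) likewise exceeded its partner Col5a1 (5.87), and Col3a1 stood at 6.75. The chains of collagen VI, which forms beaded filaments around cells, were at 6.45 for Col6a1, 6.02 for Col6a2 and 6.49 for Col6a3. The 14 members above the median listed gene held no beaded filament, FACIT or transmembrane collagen.

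**Figure D1:**
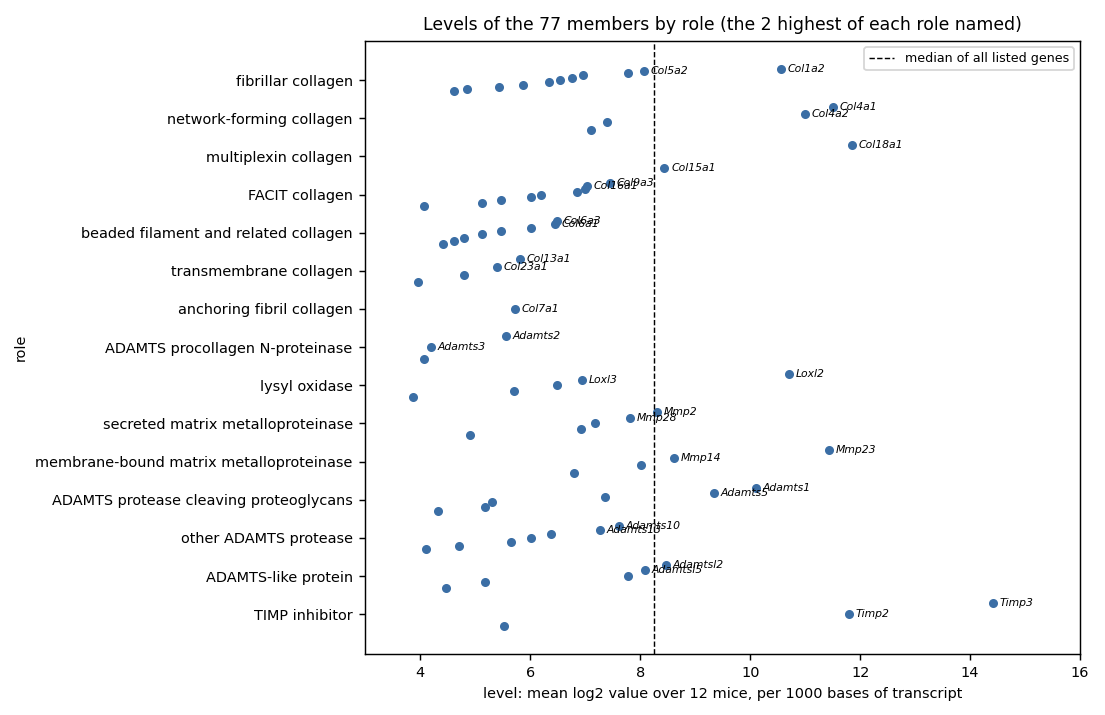
Level of each of the 77 members by role, as the mean log2 value over 12 mice per 1000 bases of transcript (horizontal axis). Each point is 1 gene, the 2 highest genes of each role are named, and the dashed line is the median of all listed genes, 8.25; Timp3 lies farthest to the right at 14.42.

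In vehicle-treated mice, which ask what diabetes does without the compound, diabetic glomeruli had higher mRNA levels of the collagen IV chains Col4a1 and Col4a2, of the endothelial collagen VIII chain Col8a1, of Col18a1 and of several proteases. Col5a2, a fibrillar chain, was lower. A gene counted as called where limma's moderated test, in one fit of all 12 mice, gave a p-value below 0.05 after Benjamini-Hochberg adjustment over the 14096 genes. By this rule 9 members rose and 6 fell, and 62 were not called. The higher calls were 11.7% of the members against 10.2% of all listed genes, and the lower calls 7.79% against 8.63%, so members were called about as often as any gene. The median log2 fold change of the members was 0.00 and that of all genes 0.008. Groups of 3 mice did not overlap for 33 members, or 42.9%, against 41.7% of all genes.

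Col4a2, the α2 chain of collagen IV, was at 13.79, 13.33 and 13.49 in vehicle-treated nondiabetic mice and at 14.20, 14.57 and 14.12 in vehicle-treated diabetic mice. The groups do not overlap, and Col4a2 rose by 0.76 ± 0.14 (log2 fold change ± standard error, 1.69-fold, adjusted p = 0.00822). Col4a1, the α1 chain, was at 14.37, 13.98 and 14.18 in the nondiabetic mice against 14.62, 15.00 and 14.57 in the diabetic mice, a rise of 0.56 ± 0.15 (adjusted p = 0.0249). Both chains were highest in diabetic replicate 2. Within a library, Col4a1 exceeded Col4a2 per 1000 bases by 0.60 ± 0.06 log2 units (SD, n = 3) in vehicle-treated nondiabetic mice and by 0.40 ± 0.012 in vehicle-treated diabetic mice, and by 0.63 ± 0.059 and 0.42 ± 0.024 in the corresponding ATG-treated groups. No test of that difference was run.

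Col8a1, a short-chain network collagen made by vascular cells, was at 9.70, 9.44 and 9.31 in nondiabetic mice and at 9.90, 10.13 and 9.87 in diabetic mice. It rose by 0.48 ± 0.13 (adjusted p = 0.028). Col18a1 was at 14.08, 14.10 and 14.18 in nondiabetic mice and at 14.45, 14.45 and 14.57 in diabetic mice, and rose by 0.37 ± 0.11 (adjusted p = 0.0346). For both genes every diabetic mouse lay above every nondiabetic one. The fourth network-forming chain, Col4a6, differed by 0.20 ± 0.13 with overlapping groups and did not pass the test (adjusted p = 0.319).

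Of the proteases, Adamts9, which cleaves versican and aggrecan, rose the most, from 9.62, 9.51 and 9.34 in nondiabetic mice to 11.07, 10.29 and 11.11 in diabetic mice (log2 fold change 1.33 ± 0.19, 2.52-fold, adjusted p = 0.00338). Diabetic replicate 2 was lower than the other two diabetic mice and still above every nondiabetic mouse. Mmp14, the membrane-anchored collagenase that activates pro-MMP2, was at 10.08, 9.71 and 9.94 in nondiabetic mice and at 10.56, 10.28 and 10.36 in diabetic mice, and rose by 0.49 ± 0.12 (adjusted p = 0.0189). Mmp17, a lipid-anchored metalloproteinase, was at 9.73, 9.45 and 9.57 against 10.42, 10.30 and 10.46 and rose by 0.82 ± 0.18 (adjusted p = 0.0142). In both genes the diabetic mice lay above all nondiabetic mice. Adamts7, a protease of cartilage oligomeric matrix protein, rose by 0.44 ± 0.12 (adjusted p = 0.0258). Mmp2, gelatinase A, rose by 0.51 ± 0.16 with an adjusted p of 0.0461, close to the threshold, and it passed in 8 of 23 alternative settings.

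Col5a2, which joins collagen fibers and limits their thickness, was at 10.95, 11.42 and 11.17 in nondiabetic mice and at 10.22, 10.62 and 10.04 in diabetic mice. It fell by 0.89 ± 0.17 on the log2 scale (adjusted p = 0.00827), with no overlap. Adamts15, another proteoglycanase, changed by −0.87 ± 0.19 (adjusted p = 0.0141) and Col26a1 by −0.43 ± 0.12 (adjusted p = 0.0335). Adamtsl1 changed by −0.81 ± 0.23 (adjusted p = 0.0346), and Adamtsl2, which lacks a protease domain and binds fibrillin microfibrils, by −0.50 ± 0.14 (adjusted p = 0.0357). Col12a1, a FACIT collagen that sits on fiber surfaces, changed by −0.35 ± 0.10 (adjusted p = 0.0369). Each of these 6 members was lower in all 3 diabetic mice than in any of the nondiabetic mice.

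The chains of the classical scar collagens did not pass the test. Col1a1 was at 9.03, 8.66 and 9.22 in nondiabetic mice and at 9.18, 9.12 and 8.61 in diabetic mice, with groups that overlap and a fitted difference of 0.00 ± 0.23. Col1a2 differed by −0.06 ± 0.25, Col3a1 by −0.03 ± 0.16 and Col5a1 by −0.01 ± 0.088. Of the 5 lysyl oxidases, the enzymes that cross-link collagen and elastin, and the 3 Timps, none was called. Col7a1, the anchoring fibril chain, differed by 0.12 ± 0.084 and Col23a1, the transmembrane collagen of highest log2 value before division by length, by −0.16 ± 0.10, and neither was called.

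Tubule markers moved with this comparison, with a mean 1.40 log2 units lower in diabetic mice (exact permutation test, two-sided, p = 0.1, the smallest that 3 against 3 allows). With that mean as a covariate only Col4a2 was called among members, at 1.10 ± 0.23 (adjusted p = 0.0336), and 3.65% of all genes were. Col4a1 stood at 0.84 ± 0.24 (adjusted p = 0.0708) and Col8a1 at 0.81 ± 0.20 (adjusted p = 0.0545), both with a larger difference and a larger error than without the covariate. Mmp14 stood at 0.49 ± 0.21 (adjusted p = 0.191), with the same difference and a larger error. The differences were smaller for Adamts9 (0.90 ± 0.32, adjusted p = 0.118), Mmp17 (0.60 ± 0.32, adjusted p = 0.275), Col18a1 (0.10 ± 0.16, adjusted p = 0.732) and Col5a2 (−0.54 ± 0.28, adjusted p = 0.258). Glomerular markers differed by 0.15 (exact permutation p = 0.3), and with their mean as a covariate 18 members were called, with 24.6% of all genes. The parts of that mean differed: endothelial markers were at 13.31 to 13.45 in nondiabetic and at 13.68 to 13.82 in diabetic mice, without overlap. Mesangial markers (11.89 to 12.19 and 11.84 to 12.05) and podocyte markers (14.49 to 14.63 and 14.33 to 15.09) overlapped. Interstitial fibroblast markers were lower in diabetic mice (10.46 to 10.52 and 10.25 to 10.30). The part of any of these lists alone was not tested. Leukocyte markers ranged from 8.28 to 8.92 in nondiabetic and from 8.83 to 9.33 in diabetic mice, and proliferation markers from 6.62 to 7.0 and from 7.98 to 8.26; their part in the result was not tested. Single mice mattered: 5 members were called without vehicle-treated diabetic replicate 1 or vehicle-treated nondiabetic replicate 2 (7.12% and 5.68% of all genes), and 7 without vehicle-treated nondiabetic replicate 1 or 3 (8.95% and 11.3% of all genes). With all mice 18.9% of all genes were called in either direction.

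**Figure D2:**
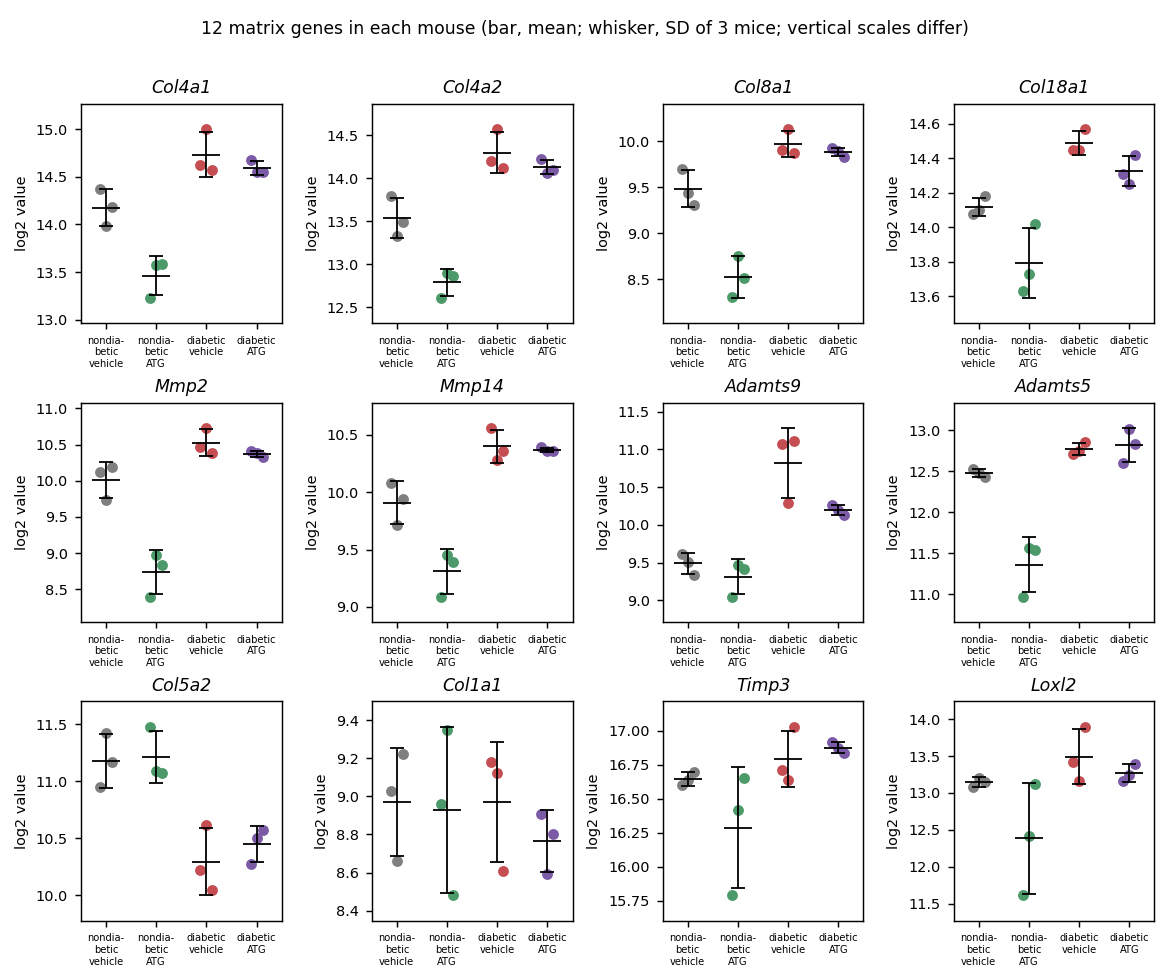
Log2 value (vertical axis, scales differ by panel) of 12 members in each of the 12 mice. Points are mice, bars group means and whiskers SDs of 3 mice; Col4a1, Col4a2, Col8a1, Mmp2 and Mmp14 are lowest in ATG-treated nondiabetic mice and higher in both diabetic groups, whereas Col5a2 is lower in both diabetic groups and Col1a1 overlaps throughout.

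In ATG-treated mice the same question, diabetic against nondiabetic, gave many more members. Here 31 members rose, 7 fell and 39 were not called. The higher calls were 40.3% of the members against 25.9% of all listed genes, and the lower calls 9.09% against 20.8%. The median log2 fold change was 0.19 in members and 0.053 in all genes, and groups did not overlap in 44 members, 57.1% against 56.1% of all genes. All 4 network-forming chains, both multiplexins and all 5 lysyl oxidases rose, as did 7 of the 16 Adamts proteases and 5 of the 9 Mmp genes. Of the 11 fibrillar chains 1 rose and 2 fell, and of the 4 transmembrane collagens none was called.

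Mmp2 had the largest difference. It was at 8.40, 8.98 and 8.84 in ATG-treated nondiabetic mice and at 10.41, 10.38 and 10.33 in ATG-treated diabetic mice, with a log2 fold change of 1.63 ± 0.16 (3.10-fold, adjusted p = 0.00011). The 3 diabetic values lie within 0.1 of each other, and all nondiabetic values lie more than a doubling below them. Col8a1 was at 8.30, 8.75 and 8.51 against 9.92, 9.89 and 9.83 and rose by 1.36 ± 0.13 (adjusted p = 9.81e-05). Col4a2 was at 12.61, 12.90 and 12.86 against 14.22, 14.06 and 14.10 and rose by 1.34 ± 0.14, and Col4a1 rose by 1.13 ± 0.15 from 13.23, 13.57 and 13.59 to 14.68, 14.55 and 14.55. The groups were apart in each of these genes.

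Adamts5, the main aggrecanase of cartilage, was at 10.97, 11.57 and 11.54 in nondiabetic mice and at 12.60, 13.02 and 12.84 in diabetic mice, a rise of 1.46 ± 0.15 (adjusted p = 0.000135). Adamts1, its neighbor on chromosome 16, rose by 1.41 ± 0.30, with a single low nondiabetic mouse at 10.57 against 12.16 and 11.52. Mmp17 rose by 1.43 ± 0.18, Mmp14 by 1.06 ± 0.12, Adamts7 by 0.90 ± 0.12 and Adamts10, a microfibril-associated protease, by 0.65 ± 0.073. Loxl3 rose by 1.06 ± 0.12 and Loxl2 by 0.89 ± 0.30. Timp2 (0.72 ± 0.21) and Timp3 (0.59 ± 0.21) rose along with the proteases. Col6a3, the long chain of collagen VI, rose by 0.84 ± 0.097, while Col6a1 (0.13 ± 0.18) and Col6a2 (0.00 ± 0.20), whose products assemble with it, were not called.

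The 7 lower members were Col5a2 (−0.77 ± 0.17), Col11a2 (−0.88 ± 0.19), Mmp1b (−0.86 ± 0.20), Adamtsl3 (−0.85 ± 0.29), Col26a1 (−0.80 ± 0.12), Adamtsl2 (−0.48 ± 0.14) and the FACIT chain Col9a1 (−0.43 ± 0.14). Col5a2 was at 11.48, 11.09 and 11.07 in nondiabetic mice and at 10.27, 10.50 and 10.57 in diabetic mice, again with no overlap. The sign turned for 4 of the 7 under a marker covariate. With the glomerular mean Adamtsl2 stood at 0.14, Adamtsl3 at 0.53 and Mmp1b at 0.10, and with the tubule mean Col11a2 stood at 0.07.

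The vehicle- and ATG-treated comparisons share no mice, although one fit gave both their errors. Of the 15 members called in vehicle-treated mice, 12 (80.0%) were called in the same direction in ATG-treated mice, which is 31.6% of the 38 called there. Over all listed genes these shares were 84.1% and 34.0%. The 9 members higher in both were Col4a1, Col4a2, Col8a1, Col18a1, Mmp2, Mmp14, Mmp17, Adamts7 and Adamts9. The 3 lower in both were Col5a2, Col26a1 and Adamtsl2. Col12a1 was called in opposite directions, and Adamts15 and Adamtsl1 were called in vehicle-treated mice alone. Adamts9 was the one of the 9 whose difference was smaller in ATG-treated mice (0.89 ± 0.19 against 1.33 ± 0.19); that these differences differ was not shown (interaction −0.44 ± 0.27, adjusted p = 0.494).

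**Figure D3:**
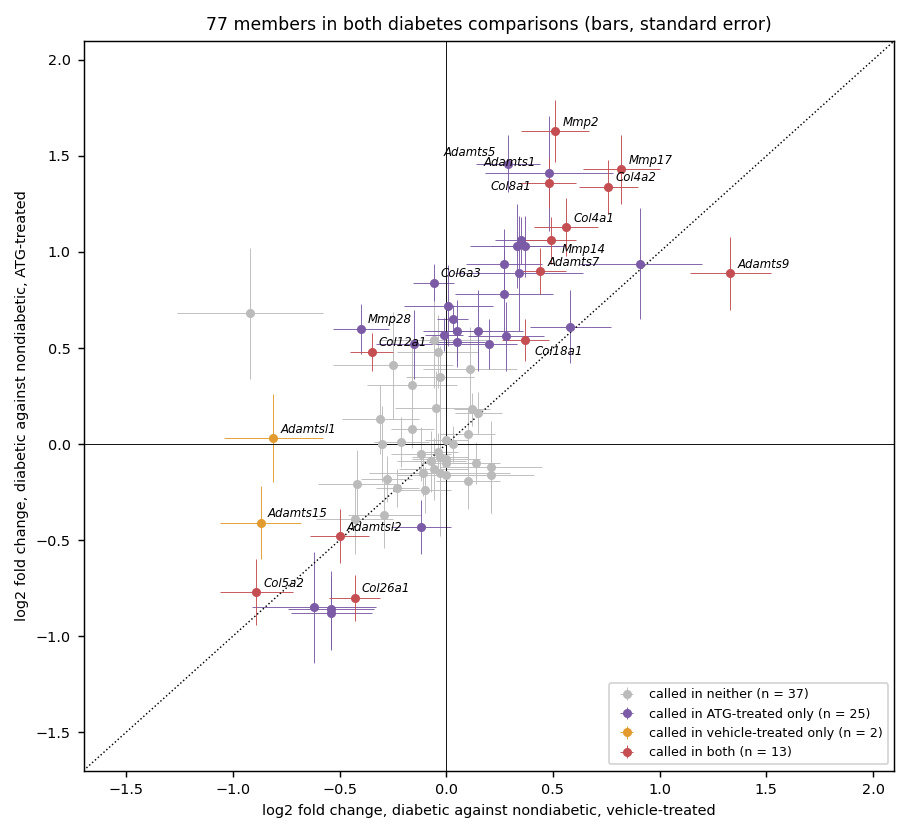
Log2 fold change of diabetic against nondiabetic mice for each of the 77 members, in vehicle-treated mice (horizontal axis) and in ATG-treated mice (vertical axis), with standard errors as bars and the dotted line at equal values. Most members called in both comparisons lie in the upper right and above the dotted line, Adamts9 lies below it, and Col5a2, Col26a1 and Adamtsl2 lie in the lower left.

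Both marker sums differed between the ATG-treated groups, with tubule markers 1.76 lower and glomerular markers 0.87 higher in diabetic mice (exact permutation test, two-sided, p = 0.1 for each). With the tubule mean as a covariate 4 members remained called, namely Col4a1, Col4a2, Col8a1 and Mmp2, with 0.653% of all genes. With the glomerular mean, a covariate added after the data were seen, only Col8a1 did among members, at 1.28 ± 0.25 (adjusted p = 0.0486), with 0.837% of all genes. Under the glomerular covariate Col4a2 stood at 1.30 ± 0.27 (adjusted p = 0.0543) and Mmp2 at 1.35 ± 0.30 (adjusted p = 0.0581). Of the members that lost their call under both covariates, some kept their size with a larger error, such as Adamts10 (0.71 ± 0.16 with the tubule and 0.65 ± 0.14 with the glomerular mean), Col6a3 (0.95 ± 0.20 and 0.87 ± 0.19) and Col26a1 (−0.86 ± 0.27 and −0.74 ± 0.24). Others became smaller, such as Mmp17 (1.16 ± 0.38 and 0.55 ± 0.17) and Col5a2 (−0.33 ± 0.33 and −0.19 ± 0.26). Since the covariates differ between the groups themselves, composition and group cannot be fully told apart in these fits. Without both mice whose labels carry no number, which are replicate 1 of each nondiabetic group, 25 members and 30.6% of all genes were called.

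ATG in nondiabetic mice, which asks what the compound does without diabetes, was accompanied by lower levels of members and by no higher call. By the same test 17 members fell and 60 were not called. The lower calls were 22.1% of the members against 4.51% of all listed genes, and the higher calls 0 against 0.709%, with 3 higher and 34 lower members at an unadjusted p under 0.05. The share of all genes at that unadjusted threshold was not counted for this comparison. The median log2 fold change was −0.24 in members and −0.039 in all genes. Groups did not overlap in 38 members, 49.4% against 34.4% of all genes, with 33 of them lower under ATG and 5 higher. This comparison shares the ATG-treated nondiabetic mice with the one before it, so a low value in those mice enters both.

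The members that fell were Col4a1, Col4a2, Col8a1, Col15a1, Col5a1, Col6a3 and Col12a1 among collagens, Mmp2, Mmp14, Mmp15 and Mmp28 among metalloproteinases, Adamts5, Adamts7, Adamts10 and Adamtsl5, and the lysyl oxidases Loxl1 and Loxl3. Mmp2 was at 10.12, 9.73 and 10.19 in vehicle-treated mice and at 8.40, 8.98 and 8.84 in ATG-treated mice, a log2 fold change of −1.27 ± 0.16 (adjusted p = 0.00465). Adamts5 was at 12.53, 12.48 and 12.43 against 10.97, 11.57 and 11.54 (−1.12 ± 0.15, adjusted p = 0.00555). Col8a1 changed by −0.97 ± 0.13 (adjusted p = 0.00548). In each of these genes replicate 1 of the ATG-treated mice was the lowest, and the groups did not overlap.

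Adamts10 had the lowest p in this comparison, at 9.82, 9.76 and 9.83 in vehicle-treated mice and 9.12, 9.16 and 9.07 in ATG-treated mice (−0.69 ± 0.073, adjusted p = 0.00243). Its 3 mice in each group lay within 0.1 of each other. Col6a3 was at 10.01, 9.72 and 9.97 against 8.98, 9.22 and 8.93 (−0.86 ± 0.097, adjusted p = 0.00318). Loxl1, which acts on elastic fibers, changed by −0.94 ± 0.18 (adjusted p = 0.0206), Loxl3 by −0.81 ± 0.12 (adjusted p = 0.00825) and Mmp15, a membrane-type metalloproteinase, by −0.81 ± 0.19 (adjusted p = 0.0368). Col4a2 changed by −0.75 ± 0.14 (adjusted p = 0.02), Col15a1 by −0.75 ± 0.18 (adjusted p = 0.0407) and Col4a1 by −0.71 ± 0.15 (adjusted p = 0.0241). Smaller differences were those of Mmp14 (−0.60 ± 0.12), Adamtsl5 (−0.61 ± 0.16), Col12a1 (−0.57 ± 0.10), Mmp28 (−0.56 ± 0.13), Adamts7 (−0.54 ± 0.12) and Col5a1 (−0.51 ± 0.088). Of 23 alternative settings Adamtsl5 passed in 6, with values from −0.76 to −0.02, and Mmp28 in 10, with values from −0.71 to −0.15.

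Several abundant members had a wide spread and were not called. Loxl2 was at 13.08, 13.21 and 13.15 in vehicle-treated mice and at 11.61, 12.42 and 13.12 in ATG-treated mice, so that replicate 3 lay within the vehicle-treated range. Timp2 was at 12.56, 13.13 and 13.67 and Timp3 at 15.79, 16.42 and 16.65 in ATG-treated mice, in the same order of mice. The podocyte markers had that order as well, with means of 13.42, 13.88 and 14.64. Col1a2 was at 12.10, 12.32 and 13.24 in ATG-treated mice, while Col1a1 was at 8.96, 9.35 and 8.48.

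Cell type markers differed between these groups, with tubule markers 0.66 higher and glomerular markers 0.70 lower under ATG (exact permutation test, two-sided, p = 0.1 for each). Mesangial markers averaged 11.89 to 12.19 in vehicle-treated mice and 10.90 to 11.28 in ATG-treated mice, endothelial markers 13.31 to 13.45 and 12.35 to 13.11, and interstitial fibroblast markers 10.46 to 10.52 and 9.88 to 10.17. With the tubule mean as a covariate 6 members were called (Adamts5, Adamts10, Col4a2, Col6a3, Col8a1 and Mmp2), with 0.305% of all genes. With the glomerular mean limma called 0, with 21 at an unadjusted p under 0.05. It also called 0 when only the nondiabetic groups entered the fit (34 at an unadjusted p under 0.05) and when both unnumbered mice were left out (28). Of all genes, 0% were called with the glomerular mean and with only the nondiabetic groups, and 0.0568% without the unnumbered mice. The shares of all genes at the unadjusted threshold were not counted, so the counts of 21, 34 and 28 cannot be weighed against them. Under the glomerular covariate the differences of some members were about as large as before, with larger errors: Adamts10 stood at −0.69 ± 0.12, Col6a3 at −0.89 ± 0.16, Col5a1 at −0.48 ± 0.15 and Mmp2 at −1.05 ± 0.25. Those of Adamts5 (−0.65 ± 0.17) and Mmp28 (−0.15 ± 0.15) were smaller. Without ATG-treated nondiabetic replicate 1 the count was 8 (1.5% of all genes), without its replicate 3 it was 32 (25.0%), and without vehicle-treated nondiabetic replicate 1 or 3 it was 6 (0.901% and 0.426%), against 5.22% of all genes with all mice.

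**Figure D4:**
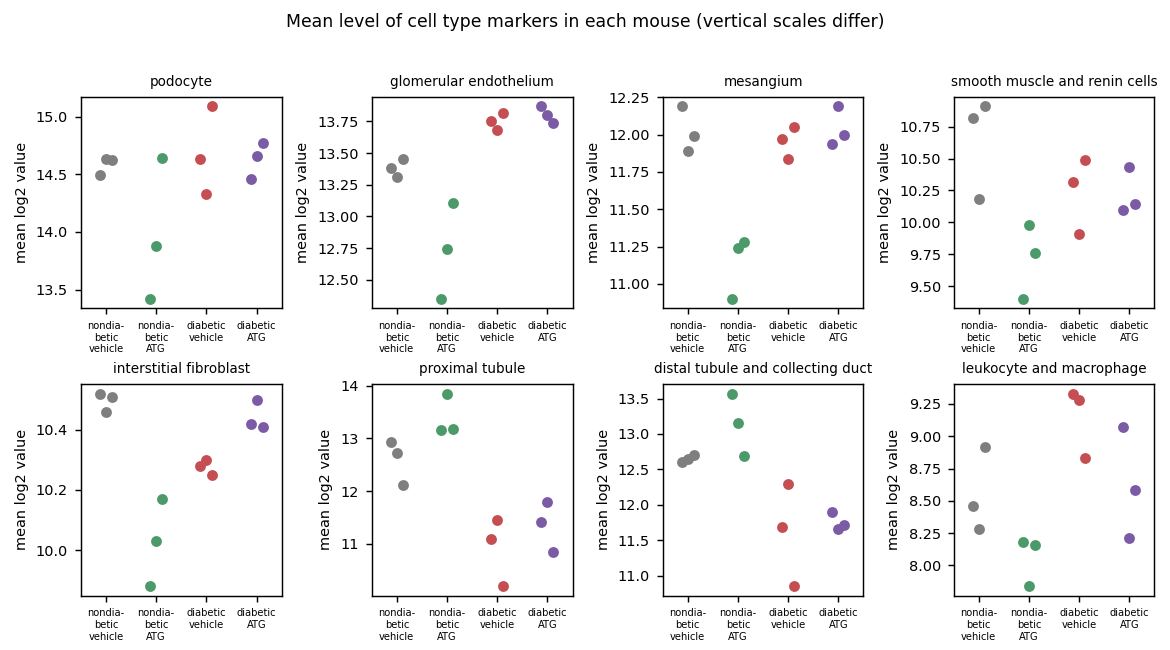
Mean log2 value (vertical axis, scales differ by panel) of 8 marker lists in each of the 12 mice, shown as points by group. Mesangial and endothelial means are lower in the ATG-treated nondiabetic mice than in the mice of the other 3 groups, and proximal tubule means are higher in all nondiabetic than in all diabetic mice.

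ATG in diabetic mice, the comparison of treated with untreated disease, changed no member by limma's test, nor any of the 14096 genes (0%). At an unadjusted p under 0.05 there were 4 members, 5.19% against 4.51% of all genes, and limma-voom on the recovered reads also called 0 members. The median log2 fold change was −0.03 in members and −0.005 in all genes, and groups did not overlap in 8 members, 10.4% against 10.2% of all genes. Mmp28, epilysin, was at 8.79, 8.85 and 8.92 in vehicle-treated and at 9.33, 9.33 and 9.25 in ATG-treated diabetic mice (0.45 ± 0.13, adjusted p = 0.917). Adamts9 was at 11.07, 10.29 and 11.11 against 10.27, 10.20 and 10.13 (−0.62 ± 0.19, adjusted p = 1). Its groups are barely apart, since replicate 2 of the vehicle-treated mice lay just above the ATG-treated mice. Col12a1 differed by 0.27 ± 0.10 and Col24a1, a minor fibrillar chain, by −0.27 ± 0.11. Col4a1 (−0.14 ± 0.15) and Col4a2 (−0.17 ± 0.14) differed little relative to their errors, as did Col8a1 (−0.09 ± 0.13), Mmp2 (−0.15 ± 0.16) and Mmp14 (−0.03 ± 0.12). Col18a1 was at 14.45, 14.45 and 14.57 against 14.31, 14.25 and 14.42, barely apart and lower under ATG, without a call (−0.16 ± 0.11). Tubule markers differed by 0.31 and glomerular markers by 0.03 between these groups (exact permutation p = 0.7 and 0.9).

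The interaction asks whether the ATG difference itself differs between diabetic and nondiabetic mice. It was called for 5 members, all with the ATG difference higher in diabetic mice, which is 6.49% of the members against 0.539% of all listed genes. In the other direction limma called 0 members, with 0 at an unadjusted p under 0.05, against 0.00709% of all genes. For Adamts5 the term was 1.17 ± 0.21, with an ATG difference of −1.12 in nondiabetic and 0.05 in diabetic mice (adjusted p = 0.0455). For Mmp28 it was 1.01 ± 0.18, from −0.56 and 0.45 (adjusted p = 0.0455), and for Col6a3 0.90 ± 0.14, from −0.86 and 0.04 (adjusted p = 0.0332). For Col12a1 it was 0.83 ± 0.15, from −0.57 and 0.27 (adjusted p = 0.0455), and for Adamts10 0.62 ± 0.10, from −0.69 and −0.07 (adjusted p = 0.0444). Mmp2, Col8a1 and Col5a1 came next at adjusted p = 0.0583, 0.0618 and 0.0671.

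Of these 5 members, Col12a1 and Mmp28 had the highest ATG differences in diabetic mice. Col12a1 was at 10.66, 10.73 and 10.56 in vehicle-treated nondiabetic mice, at 10.18, 10.17 and 9.90 in ATG-treated nondiabetic mice, at 10.45, 10.26 and 10.18 in vehicle-treated diabetic mice and at 10.70, 10.43 and 10.56 in ATG-treated diabetic mice. Mmp28 was at 9.13, 9.19 and 9.46, at 8.43, 8.67 and 8.98, at 8.79, 8.85 and 8.92 and at 9.33, 9.33 and 9.25 in the same order of groups. In both genes the untreated diabetic and the treated nondiabetic mice were low, and the ATG-treated diabetic mice overlapped the vehicle-treated nondiabetic mice. Timp4, which inhibits metalloproteinases and had few reads, also had its lower group means in those groups, without a call. It was at 7.28, 5.90 and 6.43, at 5.74, 5.85 and 5.29, at 6.11, 5.35 and 5.39 and at 6.66, 6.21 and 6.04, in that order of groups, with the largest interaction term of all 77 members, 1.60 ± 0.49 (adjusted p = 0.207).

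These 5 calls were close to the threshold. With 1 mouse left out, 5 members were called without vehicle-treated diabetic replicate 3 (0.88% of all genes) and 15 without ATG-treated nondiabetic replicate 3 (5.46%), against 0.546% of all genes with all mice. Only 1 was called without ATG-treated nondiabetic replicate 1 or 2 or without vehicle-treated nondiabetic replicate 2 (0.248%, 0.0993% and 0.248% of all genes). Without any 1 of the other 7 mice limma called 0 (0.0426% to 0.114% of all genes), with 15 to 21 at an unadjusted p under 0.05. The share of all genes at that unadjusted threshold was not counted. With the tubule mean as a covariate 4 were called (Adamts10, Col6a3, Col8a1 and Col12a1), with 0.27% of all genes. With the glomerular mean limma called 0 members and 0% of all genes, with 19 members at an unadjusted p under 0.05. The terms then stood at 0.62 ± 0.14 for Adamts10, 0.93 ± 0.19 for Col6a3 and 1.10 ± 0.17 for Col12a1, none smaller than without the covariate, and at the smaller values of 0.68 ± 0.21 for Adamts5 and 0.58 ± 0.18 for Mmp28. The markers had interaction terms of their own, with medians of 0.96 for mesangial, 0.63 for endothelial and 0.55 for podocyte markers. Of the 10 mesangial markers 2 were called higher, against 0.539% of all genes. The mesangial mean alone was not used as a covariate, so its part was not tested.

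**Figure D5:**
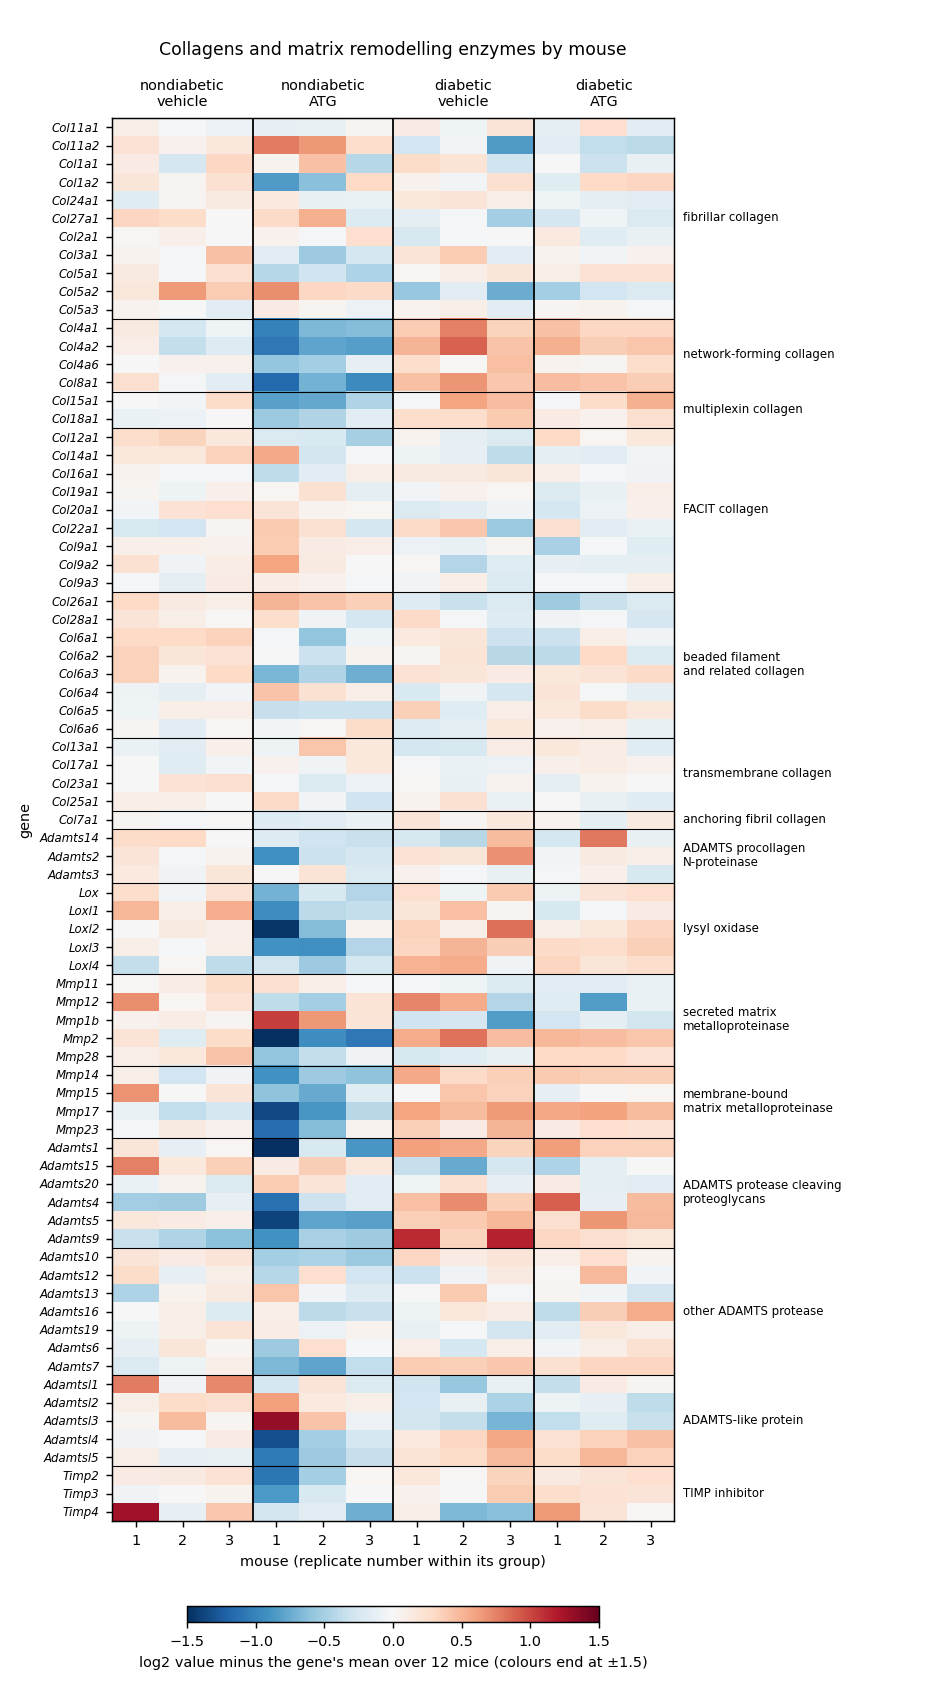
Log2 value of each of the 77 members in each of the 12 mice minus that member's mean over all mice (color, ending at ±1.5), with genes in rows by role and mice in columns by group. The ATG-treated nondiabetic mice lie below the mean across network-forming collagens, lysyl oxidases and membrane-bound metalloproteinases, except replicate 3 for Loxl2 and Mmp23. Fibrillar and transmembrane collagens are more mixed.

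Genes that lie side by side did not always move together. Col4a1 and Col4a2 changed alike in each comparison. Adamts1 and Adamts5, 55.0 kb apart on chromosome 16, rose by 1.41 and 1.46 in ATG-treated diabetic against nondiabetic mice. Col3a1 and Col5a2 lie 24.6 kb apart on chromosome 1 on opposite strands, and differed by −0.03 and −0.89 between vehicle-treated diabetic and nondiabetic mice and by 0.35 and −0.77 between the ATG-treated groups. Col6a1 and Col6a2, 85.2 kb apart on chromosome 10, differed by −0.31 and −0.30 in vehicle-treated mice, without a call for either.

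The genes that fold and export collagen were taken from a list of 25, of which 21 are listed. In vehicle-treated diabetic mice 5 rose and 0 fell (median log2 fold change 0.19), in ATG-treated diabetic mice 14 rose and 0 fell (median 0.45), and under ATG in nondiabetic mice 0 rose and 5 fell (median −0.37). Over all listed genes 10.2% rose in the vehicle-treated and 25.9% in the ATG-treated diabetic mice, and 4.51% fell under ATG in nondiabetic mice. Fkbp10, a collagen chaperone and prolyl isomerase, rose by 0.85 ± 0.11 in the vehicle-treated and by 1.55 ± 0.11 in the ATG-treated comparison. Bmp1, the procollagen C-proteinase, rose by 0.50 ± 0.11 and 1.17 ± 0.11. P3h3, a prolyl 3-hydroxylase family member, differed by 0.16 ± 0.093 in vehicle-treated mice, without a call, and rose by 0.81 ± 0.093 in ATG-treated mice.

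Other matrix glycoproteins and proteoglycans (29 of 35 listed) divided into 4 higher and 5 lower in vehicle-treated and 16 higher and 1 lower in ATG-treated diabetic mice, with 12 lower and 0 higher under ATG in nondiabetic mice. The shares of all genes were 10.2% higher and 8.63% lower, 25.9% higher and 20.8% lower, and 4.51% lower, in that order. Nid1, which links laminin to collagen IV, differed by 0.32 ± 0.12 in vehicle-treated mice, without a call, and rose by 1.27 ± 0.12 in ATG-treated mice. The small proteoglycan Bgn differed by 0.24 ± 0.11 and rose by 1.16 ± 0.11, and Ecm1 differed by 0.27 ± 0.093 and rose by 0.96 ± 0.093, in the same order. None of the 3 was called in vehicle-treated mice. The 4 that rose there, named after their values were seen, also rose in ATG-treated mice. Nid2, the second nidogen, rose by 0.57 ± 0.10 and 1.07 ± 0.10, the basement membrane proteoglycan gene Hspg2 (perlecan) by 0.39 ± 0.098 and 0.92 ± 0.098, Emilin1 by 0.59 ± 0.14 and 1.08 ± 0.14 and the microfibril gene Mfap2 by 0.80 ± 0.18 and 1.18 ± 0.18. Of the 5 that fell in vehicle-treated mice, 1 also fell in ATG-treated mice, the small proteoglycan gene Fmod (by 1.17 ± 0.29 and 0.77 ± 0.29 on the log2 scale). Prelp (−0.87 ± 0.17), Thbs2 (−0.69 ± 0.18) and Fbln5 (−0.38 ± 0.11) were not called there, and the elastin gene Eln was lower in vehicle-treated (−0.64 ± 0.18) and higher in ATG-treated diabetic mice (0.49 ± 0.18).

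Of 9 collagen receptor genes, Itga1, the integrin subunit for collagen IV, fell in both diabetes comparisons (by 0.38 ± 0.095 and 0.28 ± 0.095 on the log2 scale). Ddr2, a collagen-binding tyrosine kinase, differed by −0.23 ± 0.12 in vehicle-treated mice, without a call, and rose by 0.89 ± 0.12 in ATG-treated mice. Itgb1, the shared β1 subunit, differed by 0.29 ± 0.17, without a call, and rose by 0.76 ± 0.17. In all, 0 receptor genes rose and 1 fell in vehicle-treated mice, against 10.2% and 8.63% of all genes. In ATG-treated mice 2 rose and 1 fell, against 25.9% and 20.8%. Under ATG in nondiabetic mice 0 rose and 1 fell, against 0.709% and 4.51%, and the gene that fell was Ddr2 (−0.98 ± 0.12, adjusted p = 0.00465), with a called interaction of 1.12 ± 0.17 (adjusted p = 0.0339).

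Among 25 other proteases and inhibitors, 3 rose and 1 fell in vehicle-treated and 12 rose and 3 fell in ATG-treated diabetic mice, and 3 fell under ATG in nondiabetic mice. All genes rose in 10.2% and fell in 8.63% in the first comparison, rose in 25.9% and fell in 20.8% in the second, and fell in 4.51% in the third. Adam12, a membrane protease, rose by 0.85 ± 0.13 and 1.56 ± 0.13. Serpine2, an inhibitor of thrombin and plasminogen activators that also served as a mesangial marker, rose by 0.64 ± 0.14 and 1.62 ± 0.14. Plaur, the urokinase receptor, rose by 0.93 ± 0.25 and 1.48 ± 0.25. No gene of any of these 4 lists was called for ATG in diabetic mice by limma.

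A total of 36 members, 46.8%, were called in none of the comparisons, against 50.2% of all listed genes. They include all 4 transmembrane collagens, both Col1a1 and Col1a2, Col3a1, Col6a1, Col6a2 and Timp4. Timp4, the member with the fewest reads, differed by −0.92 ± 0.34 between vehicle-treated diabetic and nondiabetic mice (adjusted p = 0.0817), with 35 to 142 reads per library.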

How the data were processed

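The authors deposited 1 log2 value per gene for each of the 12 libraries. Turned back to linear values, 86.5% to 87.6% of those under 300 came out whole (within 0.02 reads) after division by a single constant for each library, so the deposited log2 values are scaled reads that were not divided by gene length. Library sums were 29734129 to 30196697, and every listed gene reached at least 100 in some library. The submitters' processing notes name mm10 and limma. The aligner, counter and filter are not given in the sources used here. The labels' protocol also describes dissociation and sorting of glomerular cells, which the study's methods do not mention, and the libraries are treated as whole glomeruli.

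All 12 mice entered one limma fit (version 3.58.1, R 4.3.3) of the 4 groups with a trend in the prior variance and 8 residual degrees of freedom, and p-values were adjusted over 14096 genes. These p-values rest on 1 spread per gene, pooled over the mice within all 4 groups and moderated across genes, and not on the spread of the compared groups alone. Spreads differed between groups: the SD of Loxl2 was 0.067 in vehicle-treated nondiabetic and 0.76 in ATG-treated nondiabetic mice. Mice are numbered within a group in the order of their entries. The first parts of the mouse labels differ between groups, and what they stand for is not given. Positions and promoters are from RefSeq (GRCm38.p6), in which all 77 members matched by gene identifier. Members, roles and lists were chosen with earlier results of these data known. Named genes are classical members, those called in each comparison (the 10 of lowest p per direction where more than 20 passed, the 2 per direction of lowest p where none did), and the highest in each role by log2 value not divided by length. Of each pathway list the 3 genes of lowest p for diabetes are named. Col4a6, Loxl4 and Timp4, and members listed only by their calls, were named after their values were seen. Marker means were compared by exact permutation tests, two-sided. Alternatives were another scaling, a filter, a pseudocount of 16, no trend, limma-voom on recovered reads, smaller fits, a block, omitted mice, another threshold and the tubule marker mean as a covariate. The glomerular marker mean was added after the data were seen. The fit was tested on simulated data. Figures were drawn with matplotlib 3.10.9.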

Additional observations from a re-analysis of the deposited data

Results flagged for a closer look

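Limma's test of the interaction term called 5 members, all higher, which is 6.49% against 0.539% of all listed genes. These calls were fragile: with 1 mouse left out the count ranged from 0 to 15 (0.0426% to 5.46% of all genes). Of 22 alternative settings each of the 5 passed in 7 to 11. Each term is the ATG difference in diabetic mice minus that in nondiabetic mice on the log2 scale. The term was 1.17 for Adamts5, 1.01 for Mmp28, 0.90 for Col6a3, 0.83 for Col12a1 and 0.62 for Adamts10. In Adamts5, Col6a3 and Adamts10 the ATG-treated nondiabetic mice were below all mice of the other 3 groups, and glomerular markers were lowest in the same mice (12.30 to 13.11). The part of those markers in these values was not tested beyond the covariate fits, in which Adamts10, Col6a3 and Col12a1 were still called with the tubule mean, Adamts5 and Mmp28 were not, and limma called 0 members with the glomerular mean (19 at an unadjusted p under 0.05). With the glomerular mean the terms stood at 0.62 ± 0.14 for Adamts10, 0.93 ± 0.19 for Col6a3, 1.10 ± 0.17 for Col12a1, 0.68 ± 0.21 for Adamts5 and 0.58 ± 0.18 for Mmp28. Mesangial markers, whose median interaction term was 0.96, were not used alone as a covariate. With 3 mice per group no single mouse was screened as an outlier.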

How the results depend on the processing

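Members called numbered 15 and 38 in the diabetes comparisons (vehicle-treated, then ATG-treated), 0 and 17 in the ATG comparisons (diabetic, then nondiabetic) and 5 in the interaction, and all counts below keep this order. Scaling by median ratios, a pseudocount of 16, a filter of 100 in every mouse (66 members left) and limma-voom (18, 38, 0, 17 and 6) kept each count within 1.5 times. With 1 mouse left out they ranged from 5 to 21, 27 to 44, 0 to 0, 6 to 32 and 0 to 15 (5.68% to 23.8%, 33.8% to 52.9%, 0%, 0.426% to 25.0% and 0.0426% to 5.46% of all genes). Same-numbered mice correlated weakly (r from −0.047 to 0.254 and from 0.054 to 0.339 between the nondiabetic groups, which share 2 numbers and have 1 unnumbered mouse each, and between the diabetic groups, which share 3), so not every pair exceeded 0.1 and the numbers were not taken to pair the mice. Of the 6 mice in each case, 3 and 5 correlated best with the mouse of their own number, which for the diabetic mice is a hint from the data and not from the design. The replicate block gave 6, 27, 0, 17 and 1 (9.75%, 31.4%, 0%, 6.71% and 0.0568% of all genes). With tubule marker means added to the model the counts were 1, 4, 0, 6 and 4 (3.65%, 0.653%, 0%, 0.305% and 0.27% of all genes), and with the glomerular marker mean 18, 1, 0, 0 and 0 (24.6%, 0.837%, 0%, 0% and 0%). Without the unnumbered mice they were 12, 25, 0, 0 and 0 (13%, 30.6%, 0%, 0.0568% and 0.0426%). Fits of only the groups compared gave 17, 30, 0 and 0 (16.3%, 39.2%, 0% and 0%). Wherever limma called 0, members at an unadjusted p under 0.05 numbered 2 to 9 for ATG in diabetic mice, 21 to 34 for ATG in nondiabetic mice and 15 to 21 for the interaction. The share of all genes at that threshold was counted only in the main fit for ATG in diabetic mice (4.51%). Without a trend in the prior variance the interaction gave 1. An adjusted p under 0.1 gave 22, 43, 0, 28 and 9 (29.3%, 55.7%, 0%, 15.2% and 1.53%). Signs turned for 4 named members in ATG-treated diabetic mice: Adamtsl2 (0.14), Adamtsl3 (0.53) and Mmp1b (0.10) with the glomerular mean, and Col11a2 (0.07) with the tubule mean. Why these settings change the counts was not tested. Members near the lower end of the read counts, such as Timp4, allow less precise values.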
